A study of Arabidopsis thaliana with 35 samples.

Results

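The late fallers of prolonged cold are 303 of the 18622 nuclear genes in a table of mean RNA levels from Arabidopsis thaliana seedlings. They were chosen by the levels themselves, on r, the log2 ratio of a group's average + 1 to the average + 1 of plants without cold (NV): r stayed above -0.5 after 1 d of cold and was at or below -1.5 after 40 d. The values of 1 d, 40 d and NV are therefore given as a description, with no test. All plants were Col-0 carrying a functional FRI allele, grown at 22 °C under 16 h of light. RNA was sequenced with 2 libraries in each of 7 groups. These were seedlings given 10 d of normal growth after a cold of 40 d (T10), seedlings harvested in the cold at 1 h, 1 d, 10 d, 20 d or 40 d, and NV seedlings. Chromatin immunoprecipitation of H3K27me3, H3K4me3 and H3K36me3 covered T10, 40 d of cold and NV, also with 2 libraries each. NV is the sole group without cold, so age and development cannot be told apart from cold. The labels do not say whether the libraries of a group came from separate cultures, so p-values speak for these samples only. They rest on 1 spread per gene, pooled over all 14 RNA libraries, not on the spread of the groups compared.

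Vernalization is the promotion of flowering by a long winter-like cold. A functional FRI allele keeps the floral repressor FLC active, which makes the plants depend on such cold. Genes that respond within the first day are the usual subject of cold acclimation studies. The late fallers had not dropped past the limit of the rule by then, and many stood higher than in NV. Their level was lost during the weeks that followed. H3K27me3 is a mark of Polycomb-repressed genes, H3K4me3 lies at the start of active genes and H3K36me3 over the bodies of transcribed genes. None of these marks entered the choice of the genes.

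The deposited RNA values are averages over the 2 libraries of a group, and each was split into whole reads of a deeper and a shallower library, which carry no replicate number. Reads in fitted genes numbered 2.38 M to 19.9 M a library. Levels are in CPM, scaled by the library sizes that the deposited values imply and not divided by gene length. The libraries of a group correlated across genes at r = 0.925 (1 h) to 0.992 (10 d). The spread between libraries beyond counting error was 0.067 in NV, 0.113 at 1 h and 0.0359 at T10, against 0.00355 to 0.00908 in the other groups. The limma test takes 1 spread per gene over all groups. That spread can be too wide for 20 d minus 10 d and too narrow for comparisons with NV or 1 h. The NV and 1 h libraries did not pair by group: the shallower 1 h library correlated with the deeper NV library at 0.973, above the 0.952 between the NV libraries. Between 58.8% and 74.8% of read values from 1 to 20 were even, so a read cannot be taken as 1 independent molecule.

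Over the course, the median average of the late fallers was 7.83 in NV, 9.99 after 1 h, 12.4 after 1 d, 3.63 after 10 d, 2.63 after 20 d, 0.977 after 40 d and 3.79 at T10. The drop after the first day was thus followed by a slower decline to 40 d and a partial return at T10. Over all nuclear genes the same median lay between 5.96 and 6.28 in every group. In these bulk seedlings, fewer cells of a type and less RNA per cell cannot be told apart. Of the 303, 89 were already at or below -1.5 after 10 d, 34 first got there after 20 d and 180 first after 40 d. The lowest of the 7 averages was that of 40 d in 267 and the highest that of 1 d in 139. The rule favours both counts, since it asks for a low level at 40 d and bars a low level at 1 d. At T10, r was above -0.5 in 91 late fallers and still at or below -1.5 in 61, against 76.9% and 2.34% of all nuclear genes.

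**Figure D1:**
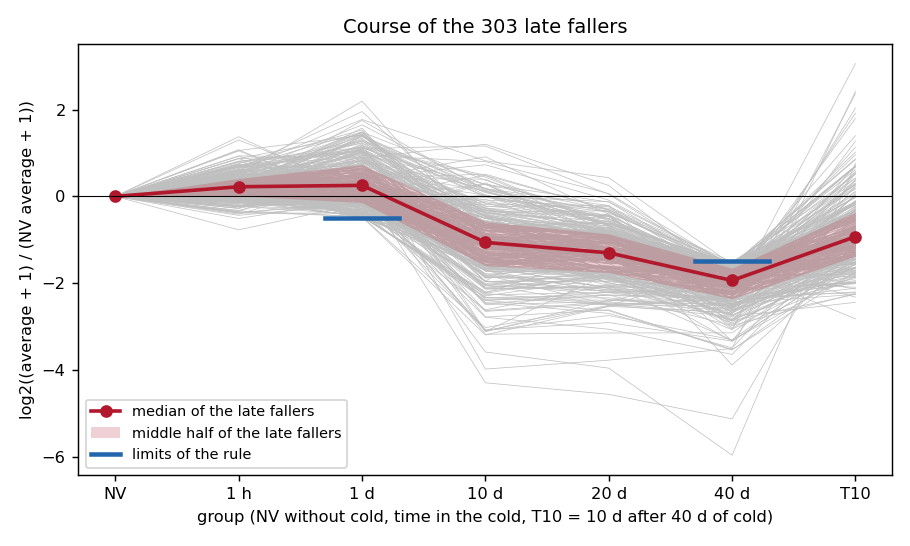
Log2 ratio of each group's average + 1 to the NV average + 1 (vertical axis) for the 303 late fallers over the 7 groups (horizontal axis), one grey line a gene, with the median and the middle range in red and the 2 limits of the rule in blue. The median reaches -1.06 after 10 d, -1.30 after 20 d and -1.94 after 40 d and lies at -0.93 at T10.

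The genes just inside and outside the limits differed little. Nearest inside the limit at 40 d lay AT3G18170 (r = -1.50257) and sks15 (-1.50408), and nearest outside FD3 (-1.4955) and THI2.2 (-1.49421). At the limit of 1 d, DHS1 (-0.490258) and NIT3 (-0.489578) lay inside and AT3G44326 (-0.506346) and MLP34 (-0.509998) outside. The other 498 genes at or below -1.5 after 40 d had fallen by 0.5 or more at 1 d and are called early fallers here.

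The drop was also measured between groups that took no part in the rule, 10 d and 1 h of cold. Because the 1 h libraries correlated with NV libraries (0.973 and 0.97) above each other (0.925), these 2 groups were not separated by correlation, and whether the 1 h values are independent of the NV values used by the rule was not tested. After 10 d of cold, 225 of the 303 late fallers (74.3%) were lower than after 1 h and 2 were higher in limma with a Benjamini-Hochberg adjusted p under 0.05, against 15% lower and 11.7% higher over all genes fitted. Their median log2 change was -1.53, against 0.00 over all genes. In 251 late fallers both 10 d libraries lay below both 1 h libraries, against 30.1% of all genes. Without the shallower 10 d library 144 falls were called, and 139 of the 225 held in all 4 fits that omit a library. The 2 that were higher, CYP86A1 and AT2G03200, did not hold in all 4. Of the early fallers 377 of 498 (75.7%) were lower in the same comparison.

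Some of the most abundant transcripts of the seedling are late fallers. ATMS1, a methionine synthase, had 602 and 669 CPM after 10 d, against 1455 and 2472 after 1 h (log2 change -1.62, SE 0.22, limma adjusted p = 0.000298). SAHH2, which hydrolyses the S-adenosylhomocysteine left by methylation reactions, had 16.6 and 21.7 after 10 d, against 154 and 154 after 1 h (-3.02, SE 0.22, limma adjusted p = 4.17e-06). Both genes of the methyl cycle thus had 10 d libraries well below those of 1 h. Their courses then parted: SAHH2 was the one late faller that rose between 10 d and 20 d (1.37, SE 0.22, adjusted p = 0.012), whereas ATMS1 stayed at 619 to 707 after 20 d. At T10 ATMS1 had 628 and 698 and SAHH2 50.5 and 57.4, neither called against 20 d (limma adjusted p = 0.977 and 0.747).

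Between 10 d and 20 d, limma called 7 late fallers lower (2.31%) and SAHH2 higher, against 0.4% and 0.65% over all genes. The 7 were AT1G30820, the hexose transporter gene MSS1, AT3G19390, AT2G18980, EIR1, AT2G03200 and the glutaredoxin gene ROXY2, with log2 changes from -0.90 to -2.22. These calls hang on single libraries: leaving out a library of either group left 0 or 1 fall and no rise, and a fit with a weight per library called 80 falls and 13 rises.

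Against 20 d of cold, more late fallers were higher at T10 than lower. The 20 d samples precede the low of 40 d, so a lower level at T10 than after 20 d need not be a fall on return. At T10, 85 of 303 (28.1%) were higher than after 20 d of cold and 19 (6.27%) lower by limma, against 13.5% and 11.6% over all genes, and neither group entered the rule. The median log2 change was 0.44, against -0.00 over all genes, and in 158 late fallers both T10 libraries lay above both 20 d libraries, against 33.1% of all genes. The rises numbered 53 without the deeper T10 library and 56 without the deeper 20 d library, and 40 of the 85 held in all 4 fits that omit a library. The falls numbered 2 and 8 in those fits, and AT5G17820 and AT1G15670, an F-box gene also named KMD2, were the 2 of 19 that held in all 4. Among early fallers 253 of 498 (50.8%) rose and 4 fell in the same comparison. The difference between the shares was not tested.

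Against the groups that chose the genes, counts are a description only. At 40 d 301 late fallers were called lower than NV, against 18.3% of all genes, and at 1 d 80 were called higher than NV, against 13.8%. At T10 14 were called higher and 140 lower than NV, against 13.7% and 10.7% of all genes. At T10 178 were called higher than at 40 d and 1, the SKU5-like gene sks5, lower, against 13.3% and 10.1%. Without the deeper T10 library the counts were 7 and 18 against NV and 104 and 0 against 40 d.

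The change in T10 minus 20 d differed with how early the level had dropped, in classes that are themselves cut on the 10 d and 20 d levels. Of the 89 late fallers at or below -1.5 by 10 d, 50 (56.2%) rose and 2 fell in T10 minus 20 d, with a median log2 change of 1.79. Of the 180 that got there first at 40 d, 25 (13.9%) rose and 17 (9.44%) fell, with a median of -0.04. Over all genes 13.5% rose and 11.6% fell. The 180 are by definition above -1.5 at 20 d, the base of this comparison. That alone favours fewer rises among them, so the counts do not test a link with the time of the drop. In 32 late fallers the 10 d average was still above NV, and of these 2 rose and 12 fell. Across the 303 genes, the log2 changes of 10 d minus 1 h and of T10 minus 20 d correlated at r = -0.64 (Spearman's rho = -0.55). The pairs share no library, but a gene low at 10 d tends to be low at 20 d too, and genes are not independent replicates.

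**Figure D2:**
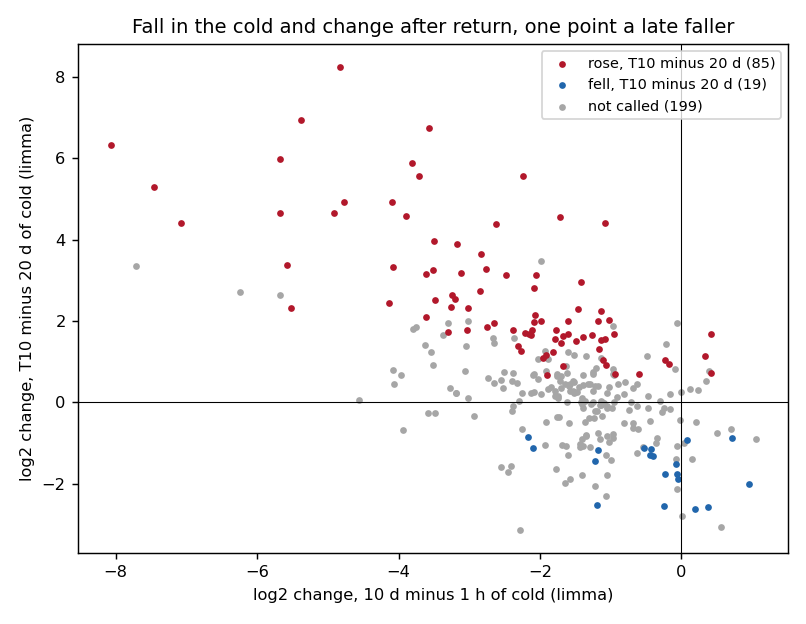
Log2 change of T10 minus 20 d of cold (vertical axis) against that of 10 d minus 1 h of cold (horizontal axis) by limma, one point a late faller, coloured by the call in T10 minus 20 d. The 85 that rose lie mostly to the left, among the largest drops in the cold, and the 19 that fell lie mostly to the right.

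DR4, named as a drought-repressed gene, fell furthest of the genes with an NV average of 5 or more (r = -5.96). It had 105 and 129 CPM in NV, 142 and 137 after 1 d, 9.32 and 8.27 after 10 d, 5.72 and 7.43 after 20 d, 0.893 and 0.877 after 40 d, and 176 and 221 at T10. The T10 libraries stood above all NV and cold libraries except the deeper 1 h library, at 230. Its rise in T10 minus 20 d was 4.93 (SE 0.33, limma adjusted p = 1.54e-06). AT5G26260, AT4G26010, AT3G45680, AGP14 and AT1G30870 were other genes near the bottom, with 40 d libraries of at most 0.657 CPM. Of these, AT5G26260, AT3G45680 and the arabinogalactan peptide gene AGP14 rose in T10 minus 20 d, AGP14 not without the deeper T10 library (adjusted p = 0.153). AT4G26010 and AT1G30870 changed by -0.89 and -0.99 (adjusted p = 0.197 and 0.0782).

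AOX1A, the main mitochondrial alternative oxidase, showed the widest overshoot. It had 276 and 249 CPM at T10, against 6.64 and 4.45 after 20 d (5.57, SE 0.23, adjusted p = 1.53e-07) and 29.4 and 31.9 in NV. No NV or cold library came near the T10 level: their highest was 35.8. MLP328, a member of the major latex protein family, had 230 and 218 at T10, against 12.5 and 9.14 after 20 d and 39.5 and 45.8 in NV. LOX1, a lipoxygenase, had 93.0 and 97.3 at T10, against 4.06 and 4.03 after 20 d and 15.3 and 29.7 in NV. The rises of AOX1A, MLP328 and LOX1 held whichever library was omitted. Such levels were not typical: 11 of the 303 late fallers had a T10 average of at least 2 times the NV average, against 12.2% of all nuclear genes above 0 in NV. They include AOX1A, MLP328, LOX1, AT5G37990, AT4G23670, VSP1 and MES9.

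OPR1, an oxophytodienoate reductase, had 255 and 265 CPM at T10, against 30.5 and 28.4 after 20 d (3.14, SE 0.20, adjusted p = 1.54e-06). VSP1, a vegetative storage protein known to respond to jasmonate, had 13.6 and 15.3 at T10, against 0.204 and 0.0601 after 20 d (6.74, SE 1.33, adjusted p = 0.00299). VSP1 was the sole late faller on a list of jasmonate genes, of which 9 of 22 rose and none fell (limma, T10 minus 20 d, list median 1.63). Over all genes 13.5% rose and 11.6% fell. OPR1 and LOX1 are on no list used here.

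**Figure D3:**
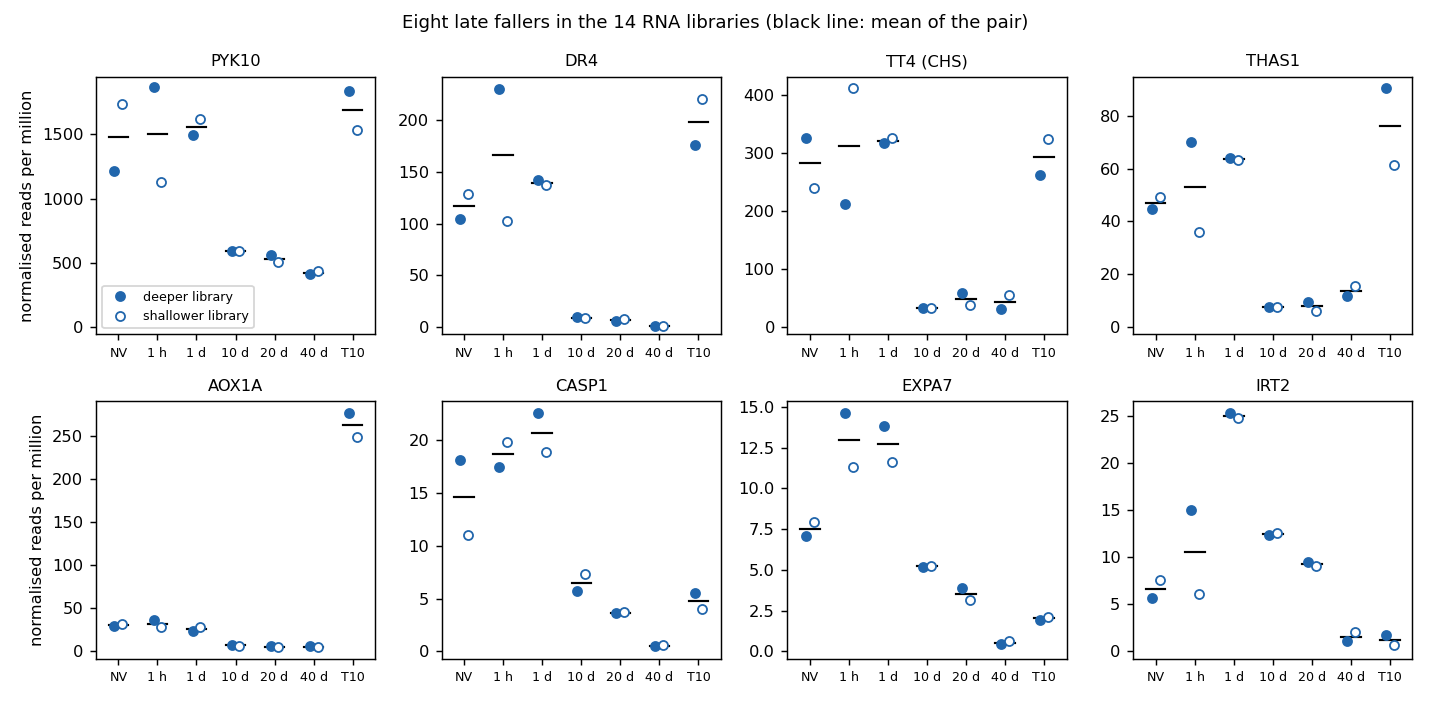
Normalised CPM (vertical axis, linear) of 8 late fallers in the 14 RNA libraries by group (horizontal axis), with a filled point for the deeper library, an open point for the shallower and a black line at their mean. PYK10, DR4, TT4 and THAS1 at T10 are back at the NV level or above it, AOX1A is far above it, and CASP1, EXPA7 and IRT2 lie below it.

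Flavonoid genes among the late fallers fell in the cold and rose after return. The list of flavonoid genes holds 16 genes of the table, of which 4 are late fallers: TT4 (chalcone synthase, the entry enzyme), CHIL (a chalcone isomerase-like protein), FLS1 (flavonol synthase) and 4CL3 (a 4-coumarate-CoA ligase that feeds the branch). All 4 fell in 10 d minus 1 h and all 4 rose in T10 minus 20 d, and each held in both comparisons whichever library was omitted. TT4 had 32.2 and 32.2 CPM after 10 d, against 212 and 411 after 1 h (-3.24, SE 0.34, adjusted p = 3.88e-05). At T10 it had 262 and 324, against 58.7 and 37.4 after 20 d (2.65, SE 0.33, adjusted p = 0.000147), which overlaps its NV libraries at 326 and 239. FLS1, CHIL and 4CL3 rose by 2.54, 1.79 and 2.34 on the log2 scale at T10. On the whole list 10 of 16 rose and 1 fell, with a median of 1.84, against 13.5% and 11.6% of all genes. Without the late fallers the list summed to 80.2 to 85.3 CPM at T10 and 60.7 to 66.2 after 20 d, against 58.5 to 78.7 in NV.

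Upstream steps gave other values. PAL1, the first enzyme of phenylpropanoid synthesis, had 372 and 392 CPM after 1 d and 40.6 and 48.5 after 40 d, against 108 and 183 in NV. It was not called in 10 d minus 1 h (-0.17, adjusted p = 0.74) or in T10 minus 20 d (0.20, adjusted p = 0.692). DHS1, a first enzyme of the shikimate pathway, had 46.4 and 44.4 at T10, against 27.9 and 21.8 after 20 d (0.89, SE 0.21, adjusted p = 0.00809), a call lost without the deeper T10 library (adjusted p = 0.0912) or the shallower 20 d library (0.0797). PAL1 is the sole late faller among 14 phenylpropanoid genes, of which 3 rose and 4 fell at T10 against 20 d. Over all genes 13.5% rose and 11.6% fell. DHS1 is on no list used here.

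ER bodies are compartments of the endoplasmic reticulum in Brassicaceae that store beta-glucosidases. PYK10, their main beta-glucosidase, had 589 and 594 CPM after 10 d, against 1874 and 1131 after 1 h (-1.26, SE 0.24, adjusted p = 0.00237). At T10 it had 1840 and 1538, against 557 and 505 after 20 d (1.65, SE 0.23, adjusted p = 0.000333). NAI1, the transcription factor needed to form ER bodies, had 24.4 and 17.7 at T10, against 7.26 and 8.06 after 20 d (1.53, SE 0.22, adjusted p = 0.000381). Regulator and enzyme thus moved by like amounts, and both calls held whichever library was omitted. BGLU21, a close relative of PYK10, had 19.6 and 18.4 at T10, against 46.5 and 32.2 after 20 d (-1.01, SE 0.58, adjusted p = 0.225). How the authors' counting divides reads between such relatives is not given in the sources used here.

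NSP1, which steers glucosinolate breakdown towards nitriles, rose by 1.68 (SE 0.16, adjusted p = 1.65e-05) at T10, with 113 and 109 CPM against 35.6 and 33.5 after 20 d. Its neighbour and relative NSP4 had 1.95 and 1.73 at T10, against 1.28 and 1.35 (0.55, adjusted p = 0.614). CYP81F4, which modifies indole glucosinolates, had 13.6 and 14 at T10, against 7.72 and 5.68 after 20 d (1.04, adjusted p = 0.00416), a call lost without the deeper T10 library (adjusted p = 0.0696).

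The thalianol cluster is a run of neighbouring genes on chromosome 5 that make a root triterpene. THAS1, its oxidosqualene cyclase, and CYP708A2, its next neighbour and a thalianol hydroxylase, are both late fallers. THAS1 had 7.44 and 7.58 CPM after 10 d, against 70.2 and 36.1 after 1 h, and 90.5 and 61.6 at T10, against 9.61 and 6.19 after 20 d. Its change was -2.76 (SE 0.32, adjusted p = 7.51e-05) in the first comparison and 3.29 (SE 0.32, adjusted p = 2.43e-05) in the second. CYP708A2 changed by -3.12 and 3.18 in the same comparisons, and both calls of both genes held whichever library was omitted. Of 8 listed triterpene genes, 6 rose and 1 fell at T10 against 20 d, with a median of 3.24. The shares over all genes were 13.5% and 11.6%. At T10 the late fallers carried most of that list's summed level, 126 of 167 CPM in the deeper library and 92.4 of 128 in the shallower. In the deeper NV library they carried less, 68.3 of 160. The other 6 genes stood at 35.4 to 40.8 CPM at T10 and at most 4.75 after 20 d, against 56.9 to 92.1 in NV. Among all late fallers, 24 stood in 12 pairs of adjacent table genes, and no run was longer than 2.

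Root hair genes fell in the cold. At T10 limma called none of them higher than after 20 d. Against 40 d, 10 of 22 were called higher and 0 lower (median log2 change 2.92), against 13.3% and 10.1% of all genes. The 40 d group entered the rule, so for the late fallers among them these counts are a description only. Of 22 root hair genes in the table, 11 are late fallers, among them EXPA7 and EXPA18 (expansins that loosen the hair wall), RHD2 (the NADPH oxidase of hair growth), LRX1 (a leucine-rich extensin), PRP3 and SHV2. EXPA7 had 5.18 and 5.26 CPM after 10 d, against 14.6 and 11.3 after 1 h (-1.34, SE 0.20, adjusted p = 0.000511), and 0.427 and 0.633 after 40 d. At T10 it had 1.95 and 2.08, against 3.88 and 3.16 after 20 d (-0.82, SE 0.33, adjusted p = 0.0922). All 4 values of that comparison lay below the NV libraries, at 7.09 and 7.96. In 10 d minus 1 h, 4 of the 11 fell, against 15% of all genes, and EXPA7 and EXPA18 held whichever library was omitted. In T10 minus 20 d none of the 11 was called by limma (median -0.82), while 4 were lower and 1 higher at an unadjusted p under 0.05 and limma-trend called 3 lower. RHD2 stood highest after 1 d, at 23 and 21.7, against 5.2 and 7.7 in NV.

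RHD2 is 1 of the 5 late fallers that had risen most after 1 d, with r from 1.65 to 2.19, which the rule allows. The others were CYP716A2, a triterpene oxidase, AT4G17280, IRT2 and GPAT7, a glycerol-3-phosphate acyltransferase. CYP716A2 had 14.4 and 17.7 CPM after 1 d, against 1.68 and 3.76 in NV, and 0.914 and 0.851 after 10 d. In T10 minus 20 d, CYP716A2, AT4G17280, GPAT7 and RHD2 changed by 1.59, -1.02, -1.39 and -0.15 (adjusted p = 0.0814, 0.0531, 0.0812 and 0.849). With limma-trend CYP716A2 was called higher (1.09, adjusted p = 0.0189) and GPAT7 lower (-0.78, adjusted p = 0.0491).

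Endodermis and suberin genes make the root's inner barrier. Of 21 in the table, 8 are late fallers, among them CASP1 and CASP2, which mark the membrane below the Casparian strip, the peroxidase PER64, and the suberin genes CYP86A1, CYP86B1, RWP1 and ABCG6. Of these, 7 were lower and CYP86A1 higher after 10 d than after 1 h, and CASP1, CYP86B1 and ABCG6 held whichever library was omitted. CYP86A1, a fatty acid hydroxylase, had 53.9 and 56.5 CPM after 10 d, 30.4 and 25.7 after 20 d, and 4.74 and 6.01 after 40 d. At T10, CYP86A1 and the suberin transporter ABCG6 were lower than after 20 d (-0.87 and -1.45, adjusted p = 0.0224 and 0.0121), calls lost without the deeper T10 library (adjusted p = 0.424 and 0.363). CYP86A1 also lost it without the deeper or the shallower 20 d library (0.134 and 0.0508), and ABCG6 without the shallower (0.0685). CASP1 had 5.50 and 3.99 at T10, against 3.60 and 3.70 after 20 d (0.50, adjusted p = 0.313) and 18.2 and 11.1 in NV. Against 40 d, 6 of the 21 were called higher at T10 and 2 lower (median 1.21), against 13.3% and 10.1% of all genes. The 8 late fallers summed to 35.2 to 46.8 CPM at T10 and 12.7 to 13.2 after 40 d. The 40 d group entered the rule, so for them this is a description only.

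Some root transporter and wall genes were lower at T10 than after 20 d. IRT2, an iron transporter of the root epidermis, had 25.3 and 24.8 CPM after 1 d and 9.51 and 9.05 after 20 d. At T10 it had 1.76 and 0.694 (T10 minus 20 d -2.63, SE 0.65, adjusted p = 0.0108), a call lost without the deeper T10 library (adjusted p = 0.211). EIR1, the auxin carrier also known as PIN2, fell by 1.13 on the log2 scale at T10 against 20 d (adjusted p = 0.00777, but 0.606 without the deeper T10 library). HRGP1, a hydroxyproline-rich wall protein, and AGP31, an arabinogalactan protein, fell by 2.54 and 2.00, and neither kept the call without the deeper T10 library (adjusted p = 0.555 and 0.49).

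Of 37 expansin and XTH genes 5 are late fallers, 4 of them lower after 10 d than after 1 h, and XTH31 alone rose at T10 against 20 d. On the whole list 9 rose and 12 fell in that comparison, with a median of -0.47, against 13.5% and 11.6% of all genes. The remaining XTH14, XTH17, XTH19 and EXPA17 changed by -0.37, 3.35, 0.59 and -3.07 and were not called. AMT1;2, an ammonium transporter and the sole late faller among 36 root ion transport genes, rose by 0.91 (SE 0.25, adjusted p = 0.0197), a call lost without any 1 of the 4 libraries (adjusted p from 0.0709 to 0.11). On its list 4 of 36 rose and 18 fell, with a median of -1.05, against 13.5% and 11.6% of all genes.

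Xylem genes and aquaporins were divided. Of 16 xylem and secondary wall genes, 5 are late fallers. XCP1, a xylem peptidase, and CTL2, a chitinase-like protein of cellulose deposition, rose by 2.33 and 1.96 at T10 against 20 d (adjusted p = 0.0139 and 0.00405), though not without the deeper T10 library (0.219 and 0.0863), and XCP1 not without either 20 d library (0.0818 and 0.0811). IRX3, a cellulose synthase, IRX12 and LAC17, both laccases of lignification, changed by 0.64, 0.83 and 0.24 and were not called by limma with voom, while limma-trend called 3 of the 5 higher. Of 22 aquaporins, 5 are late fallers, all lower after 10 d than after 1 h, and at T10 the tonoplast aquaporin TIP2;3 alone rose against 20 d. TIP2;3 had 3.58 and 6.59 at T10, against 0.0511 and 0.0601 after 20 d (5.88, SE 1.07, adjusted p = 0.00186), while PIP2B, a plasma membrane aquaporin, changed by 0.13 (adjusted p = 0.652).

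Summed over all 22 genes, the root hair list stood at 155 to 161 CPM in NV, 179 to 222 after 1 h, 254 to 259 after 1 d, 103 to 121 after 10 d, 79.3 to 92.3 after 20 d, 38.7 to 43.4 after 40 d and 62.5 to 70.2 at T10. Without the 11 late fallers the remaining root hair genes summed to 33.1 to 38.6 after 40 d, against 101 to 106 in NV, and to 34.9 to 39.5 at T10. The endodermis list stood at 360 to 394 after 1 d and 91.0 to 92.6 after 40 d, against 181 to 199 in NV, and CASP5 was at 0 after 40 d. At T10 it stood at 86.2 to 114, and at 51.0 to 67.1 without its 8 late fallers. Without its 8 late fallers it summed to 78.3 to 79.5 after 40 d, against 91.9 to 99.6 in NV, so most of the difference lay in genes that the rule chose for it. The root cap and meristem list had 62.4 to 63.8 at T10 and 96.5 to 97.1 after 40 d, against 107 to 129 in NV, with BBM at 0 at T10. Its 10 genes in the table do not include the cap genes SMB, BRN1, BRN2 and FEZ, so the sum does not speak for the root cap. Without late fallers that list summed to 92.2 to 93.3 after 40 d, against 93.8 to 114 in NV. Root ion transport genes without AMT1;2 summed to 512 to 591 at T10 and 864 to 909 after 40 d, against 752 to 980 in NV. Light harvesting and Rubisco genes, which mark green tissue, held no late faller among 28, and the 27 that could be split summed to 26166 to 26547 after 40 d, against 17114 to 29408 in NV. Outside the late fallers, root hair genes were thus lower after 40 d than in NV and endodermis genes less so. The root cap and meristem list lay just below the NV range and ion transport genes within its range. The part of these root markers in the result was not tested.

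**Figure D4:**
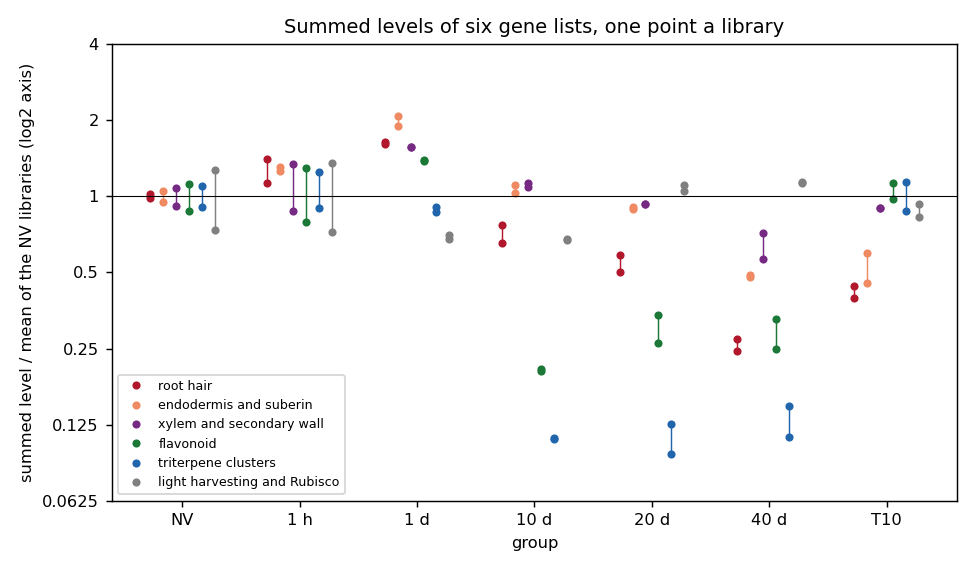
Summed CPM of 6 gene lists in each library, divided by the mean of the NV libraries (vertical axis, log2 scale), by group (horizontal axis), one point a library and a line joining the pair. The sums include the late fallers, and those of flavonoid and triterpene genes are back at the NV level at T10, whereas those of root hair and endodermis genes lie below it.

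Several genes without a listed role also differed between T10 and 20 d of cold. AT5G37990 had 166 and 186 CPM at T10, against 1.61 and 1.23 after 20 d (6.94, SE 0.88, adjusted p = 0.000159) and 26.3 and 37.9 in NV. AT5G26260 had 37.5 and 21.8 at T10, against 0.307 and 0.782 after 20 d (5.99, SE 1.22, adjusted p = 0.00366). AT2G16005 had 119 and 38 reads at T10 and none in either 20 d library, at least 101-fold higher when 3 reads over the group are taken as the floor. AIR1, an auxin-induced gene of root cultures, had 50 and 6 reads at T10, against 2 and 0 after 20 d, which gave 53.9 times the level (95% counting interval 14.2 to 456). The interval and the floor take each read as independent and leave out the spread between libraries. Since most small read values were even, the counting error may be wider than stated. Among the other large rises, AT1G77520 had 9.87 and 13.5 CPM at T10, against 0.46 and 0.361 after 20 d (4.66, SE 0.59, adjusted p = 0.000169). AT1G14960, AT5G04120 and AT4G12545 stood at 0.694 to 3.81 CPM at T10 and at most 0.12 after 20 d, and each lost its call without the deeper 20 d library (adjusted p = 0.058, 0.122 and 0.0581). AT5G04120 and AT4G12545 also lost it without the deeper T10 library (0.132 and 0.153) or the shallower 20 d library (0.108 and 0.0507). Among genes lower at T10 than after 20 d, AT3G28550, AT4G29690 and AT3G54580 changed by -2.59, -2.53 and -1.88. None kept its call without the deeper T10 library, where the changes were -0.04, -1.58 and -0.22. AT4G29690 also lost it without the deeper 20 d library (0.0639), and AT3G28550 and AT3G54580 without any 1 of the other libraries (0.0723 to 0.121).

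The remaining genes with the highest NV levels took different ways. AT4G11320, a cysteine protease, had 15.8 and 22.7 CPM after 40 d, against 116 and 177 in NV, and 145 and 235 at T10. It rose in T10 minus 20 d by 1.04 (adjusted p = 0.0267), a call lost without the shallower T10 library (0.206), the deeper 20 d library (0.107) or the shallower (0.106). AT1G62660 rose by 1.56 (SE 0.16, adjusted p = 3.87e-05), AT1G30820 by 0.95 (SE 0.17, adjusted p = 0.00196), and both held whichever library was omitted. AT1G22410 rose by 0.68 (adjusted p = 0.0337), but not without the deeper T10 (0.351), deeper 20 d (0.078) or shallower 20 d library (0.18). UCC2, a uclacyanin, and AT5G64100 changed by 0.39 and 0.50 and were not called. sks5 had 21.3 and 23.1 at T10, against 50.6 and 45.5 after 20 d (-1.13, SE 0.27, adjusted p = 0.009), lost without the deeper T10 library (0.135) or the deeper 20 d library (0.0586).

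Other lists held 1 late faller each or none. AXR3, an auxin-response repressor, was the sole one of 30 auxin genes, PCNA2, a replication clamp, of 28 cell cycle genes and IPMI1 of 19 aliphatic glucosinolate genes. All 3 fell in 10 d minus 1 h, by 1.25, 1.40 and 2.28 on the log2 scale, and none was called in T10 minus 20 d (adjusted p = 0.384, 0.401 and 0.0759), although limma-trend called IPMI1 lower. The fall of AXR3 held whichever library was omitted. That of PCNA2 was lost without either 10 d library or the deeper 1 h library (adjusted p from 0.0963 to 0.551), and that of IPMI1 without either 10 d library or the shallower 1 h library (0.0713 to 0.212). No late faller was on the lists of 19 phloem, 17 stomatal and epidermal, 12 seed reserve, 23 flowering, 20 cytokinin, 20 gibberellin or 18 brassinosteroid genes.

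RCI2B is named for induction by cold and belongs to a list of 22 cold acclimation genes. Its fall at 40 d was fixed by the rule. Of the whole list, 14 of the 22 were called higher and 1 lower at 40 d than in NV, against 16.5% and 18.3% of all genes. RCI2B had 28.3 and 31.7 CPM after 1 d, 1.93 and 1.88 after 10 d, and 0.679 and 0.779 after 40 d, against 24 and 13.9 in NV. The summed level of the list was 2683 to 2736 after 40 d, against 265 to 448 in NV.

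Already without cold, fewer late fallers than table genes carried H3K4me3 and H3K36me3 and more carried H3K27me3, a difference that was not tested. Marks were read over 300 late fallers and 18208 table genes with coordinates. A gene counted as marked where the deposited peaks of a library covered at least 50% of it, or for H3K4me3 at least 50% of a length of 1000 bp. In both NV libraries H3K4me3 marked 41.7% of late fallers, 73.0% of early fallers and 85.9% of all genes. H3K36me3 marked 6.67%, 17.7% and 55.2%, and H3K27me3 marked 27.7%, 17.9% and 5.24%. Their median NV average was 7.78, against 6.22 over all genes, a level that the rule itself keeps from being near 0, and their median length was 1922 bp, against 2469 bp. None of the 3 marks was found in both NV libraries on 26.7% of late fallers, against 7.78% of all genes. With 2 libraries a group the smallest two-sided permutation p is 0.333, so no test was made on single genes.

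**Figure D5:**
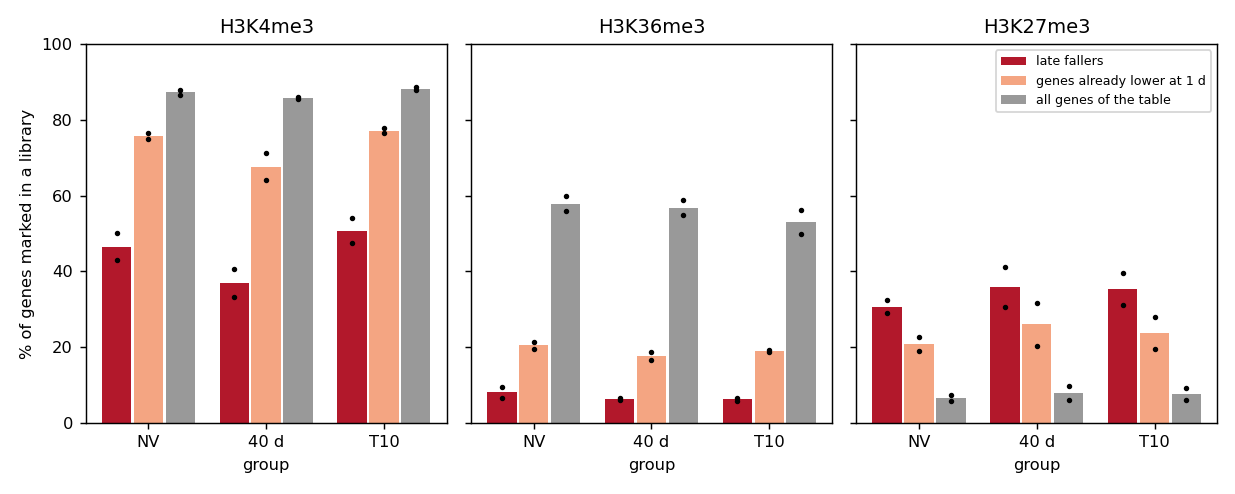
Share of genes marked in a library (vertical axis, %) for H3K4me3, H3K36me3 and H3K27me3 at NV, 40 d of cold and T10 (horizontal axis), for late fallers, early fallers (genes already lower at 1 d) and all genes, with bars at the mean and points for the 2 libraries. H3K4me3 on late fallers is lowest at 40 d, at 40.7% and 33.3%, and highest at T10, at 54% and 47.3%.

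H3K4me3 cover of the late fallers, like their RNA, was lowest at 40 d. At T10 the cover was above NV in each replicate, while the median RNA level was below NV. Peaks covered a mean of 37.8% and 31.6% of the measured length after 40 d, against 46.9% and 41.1% in NV, and 51.1% and 45.0% at T10. Over all genes the mean cover took the same order. It was 83.9% and 83.2% after 40 d, 85.5% and 84.5% in NV, and 86.8% and 85.6% at T10. A mark was called lost where both libraries of 1 group and neither of the other had it. At 40 d against NV, 17 late fallers lost H3K4me3 (5.67%) and RALF1, a signalling peptide gene, gained it, against 1.77% and 0.774% of all genes, while 6.6% of early fallers lost it. At T10 against 40 d, 27 late fallers gained it (9%), against 2.23% of all genes and 8.66% of early fallers. Of the 17 that lost the mark, 13 had it again in both T10 libraries and 4 in 1. Of the 27 that gained it at T10, 20 also rose in RNA at T10 against 20 d and AT5G17820 fell. In that comparison 28.1% of the late fallers and 13.5% of all genes rose. The share over all genes that gained the mark was not taken, nor that for the counts on 1 library a group. With 1 library a group, 32 to 35 lost it at 40 d and 42 to 45 gained it at T10.

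PYK10 and NAI1 are among the 17. They were covered by H3K4me3 over 100% of the measured length in both NV and both T10 libraries and over 0% in both 40 d libraries. CYP81F4 was covered over 87.9% and 67.2% in NV, 0% and 0% after 40 d, and 100% and 100% at T10. XTH31, a wall-modifying enzyme, was covered over 98.8% and 93.7% in NV, lost the mark after 40 d and had it over 72.0% in 1 T10 library. Its RNA rose by 1.70 at T10 against 20 d (SE 0.26, adjusted p = 0.000517). Others that lost the mark and had it again include AT4G23670, AT1G06640, CYP710A2 and the methylesterase gene MES9. At 40 d PYK10 also carried H3K27me3 over 46.2% and 54.9%, against 0% and 0% in NV.

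Other late fallers fell without losing the mark. ATMS1, SAHH2, OPR1, AOX1A, PAL1 and FLS1 were covered by H3K4me3 over 100% in all 6 libraries. TT4 was covered over at least 98.9%, and the 4 flavonoid late fallers all had the mark in both NV libraries. Of the 125 late fallers marked by H3K4me3 in both NV libraries, 45 (36%) rose at T10 against 20 d. Of the 146 marked in neither, 28 (19.2%) rose. Their levels differed too, with a median NV average of 18.7 in marked and 5.41 in unmarked late fallers, and the part of the level in this difference was not tested.

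At 6 late fallers H3K4me3 was present in both T10 libraries and in neither NV library, which was so for 0.78% of all genes: DR4, AT1G77530, CYP705A20, NIT3, AT5G44380 and GMD1. DR4 was covered over 85.5% and 77.0% at T10, and over 0% in both 40 d and both NV libraries. Of these, 4 were higher in RNA at T10 than after 20 d: DR4, AT1G77530, NIT3 (a nitrilase, 1.77, SE 0.26, adjusted p = 0.000407) and AT5G44380 (1.31, SE 0.28, adjusted p = 0.00469, but 0.059 without the deeper T10 library). GMD1, a GDP-mannose dehydratase, had 0.911 and 3.81 CPM at T10, against 3.45 and 1.71 after 20 d.

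Few late fallers changed H3K27me3. It marked 30.3% of them in both libraries after 40 d and 31.0% at T10, against 27.7% in NV. By the same rule 2 late fallers gained it at 40 d (0.667%), against 0.154% of all genes. These were TIP2;3, covered over 81.5% and 63.5% after 40 d, against 46.4% and 43.7% in NV, and AT2G16760. At T10 TIP2;3 kept the mark, over 78.6% and 57.9%, while its RNA rose, and AT5G12940 gained it (0.198% of all genes). The number of gains at 40 d was 9 on replicate 2 alone and 29 on replicate 1 alone, whose libraries held 15.6 M filtered tags at 40 d and 6.01 M in NV. Depth thus moved with these counts, and its part was not tested.

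Rises in RNA at T10 were also found on genes that carried H3K27me3 in NV, some of them in every library. Of 83 late fallers with the mark in both NV libraries, 22 (26.5%) rose at T10 against 20 d. Of 199 with it in neither, 58 (29.1%) rose, against 13.5% of all genes. VSP1 and MLP328 were covered over 100% in all 6 H3K27me3 libraries. DR4 was covered over 100% and 89.8% at T10 and over 100% and 100% after 40 d, against 76.4% and 75.9% in NV. THAS1 was covered over 96.7% and 73.9% at T10 and over 100% and 95.1% after 40 d, against 87.4% and 72.5% in NV. EXPA7 and IRT2, whose T10 libraries lay below both NV libraries, were covered over at least 89.3% in every library. In whole seedlings, marks and RNA of one gene may stem from different cells.

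H3K36me3 was rare on late fallers and changed on few. AOX1A was covered over 73.4% and 60.5% at T10 and over 42.8% and 42.1% after 40 d, against 50% and 54% in NV. FLA7, a fasciclin-like arabinogalactan protein, was covered over 0% and 0% after 40 d, against 56.6% and 65.6% in NV, and over 0% and 37.3% at T10. With AT1G68440 these were the 3 late fallers (1%) that lost the mark at 40 d, against 1.61% of all genes. At T10 against NV 4 had lost it, FLA7, AT1G76550, AT1G57770 and FaTA, against 2.08% of all genes. Except for FLA7, their cover was 51.0% to 56.3% in NV and 36.6% to 49.99% at T10, close to the limit of 50%. Over all genes the share marked in both libraries was 49.0% at T10, against 55.2% in NV. The T10 libraries held 8.49 M and 16.7 M filtered tags, against 15.3 M and 23.3 M in NV, and the part of depth was not tested. FLA7 RNA stood at 6.60 and 7.46 CPM at T10, against 14.4 and 10.5 after 20 d (-0.86, adjusted p = 0.0348), a call lost without the deeper T10 library (adjusted p = 0.412), the shallower T10 library (0.0626) or the deeper 20 d library (0.205).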

How the data were processed

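Per the submitters' processing notes, TopHat and edgeR made the RNA values and Bowtie2 and MACS2 the ChIP values, on the build TAIR10, from ribosome-depleted stranded RNA libraries per the labels. The authors deposited RNA as a signal, normalised reads averaged over 2 libraries a group. Per the file headers, MACS 2.1.1.20160309 called peaks in each library with tags extended to 600 bp and a q-value limit of 0.05. The deposited peaks give positions, pileup signal, fold enrichment, and p-value and q-value as −log10. Each average is a sum of whole multiples of 2 steps, and was split here into whole reads of 2 libraries (99.95% to 99.98% of values had 1 solution at a relative tolerance of 1e-12; 13 genes could not be split). The test on these reads was limma 3.58.1 with voom over all 14 libraries and 18766 genes (R 4.3.3), with no count filter and no covariate. On simulated data it recovered 20% of 2-fold and 83% of 4-fold changes in T10 minus 20 d, so a gene not called may still have changed. A call of higher or lower means a Benjamini-Hochberg adjusted p under 0.05 over all genes. Peaks were summed over gene bodies, and for H3K4me3 set against 1000 bp, since no strand was used. The alternatives were another scaling, a filter of 10 reads in 2 libraries, limma-trend, a weight per library, other pseudocounts, other cover limits, a stricter −log10 q of 5, and leaving out each library. The genes and lists were chosen with earlier results of these data known. Named by rule were the late fallers highest in NV, lowest at 40 d, highest at 1 d, with the largest calls at T10 against 20 d, with a moved mark, at the limits, and the 2 to 4 highest in NV on a list. Others were named after their values were seen, among them BGLU21, NSP4, LOX1, MLP328, MES9, MSS1, GMD1, RALF1, AT1G15670 and AT5G17820. Gene positions and symbols came from a RefSeq table (TAIR10.1), whose frame the peaks fitted to within 100 bp in 39 windows. Sequences were not used here.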

Additional observations from a re-analysis of the deposited data

How the results depend on the processing

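No paired analysis was possible because the RNA columns carry no replicate numbers and the ChIP counts come from no test. The rule gave 303 genes, and 74 with a pseudocount of 5. Limma-trend called 34 falls in T10 minus 20 d and 4 falls in 20 d minus 10 d. A weight per library called 13 rises and 80 falls in 20 d minus 10 d and 1 rise in 10 d minus 1 h. Leaving out a library gave 53 to 74 rises and 2 to 14 falls in T10 minus 20 d, 0 rises and 0 to 1 falls in 20 d minus 10 d, and 1 to 3 rises and 144 to 240 falls in 10 d minus 1 h. It gave 7 to 14 rises and 18 to 145 falls in T10 minus NV, and 104 to 156 rises and 0 to 1 falls in T10 minus 40 d. Peaks covering at least 25% marked 39, 33 and 33 late fallers with H3K36me3 at NV, 40 d and T10, and at least 75% marked 5, 4 and 5. H3K27me3 gains against NV were 4 at both 40 d and T10 at 25%, and 6 at both at 75%. H3K36me3 losses at 40 d were 5 at 25% and 1 at 75%, and at T10 0 at 75%. On 1 replicate, H3K27me3 gains were 9 to 29 at 40 d and 8 to 22 at T10. H3K4me3 losses at 40 d were then 32 to 35, gains at T10 against 40 d 42 to 45 and against NV 14 to 20, and H3K36me3 losses 4 to 9 at 40 d and 5 to 10 at T10. The cause of these moves was not tested. Another scaling and the filter of 10 reads moved no count of calls by more than 1.5 times. Depth limits the shallower T10 library most, at 2.38 M reads, and the search of promoters was not run.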
